A study of Mus musculus with 8 samples.

Results

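The 10 genes described here encode transcriptional regulators known from the lining of blood vessels. They are the ETS factors Erg, Fli1, Ets1, Ets2, Elk3 and Etv6, the basic helix-loop-helix factors Tal1 and Lyl1, the LIM-domain protein Lmo2 and the zinc-finger factor Gata2. They were chosen by name, and each name matched 1 of the 36048 genes in the deposited gene table. Their RNA was compared between 3 populations from the skeletal muscle of mice.

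Flow cytometry of hindlimb muscles gave endothelial cells (EC, n = 3) and satellite cells (SC, n = 2, replicates 1 and 3), the stem cells of muscle, with about 100000 cells for each library. Single muscle fibres (SMF, n = 3) came from the extensor digitorum longus, a hindlimb muscle, and 100 intact fibres per library were picked by hand after 3 h of rest. Between the sorted cells and the fibres, population, way of isolation and muscle of origin therefore changed together and cannot be told apart. EC and SC were both sorted from hindlimb muscles, so this does not apply between them. The labels used here give no strain, genotype, sex, age, treatment or sorting gate, and they do not tie replicates to separate animals. The p-values below therefore reflect how far these libraries vary, and that variation may be technical.

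ETS proteins share a winged helix-turn-helix domain that reads a short GGAA core in DNA, and such cores are found in most known endothelial enhancers. ERG and FLI1 keep the endothelial programme active in adult vessels. TAL1 or its relative LYL1 pairs with an E protein on an E-box, GATA2 binds a nearby GATA site, and LMO2 with LDB1 bridges them into a single complex, which is used in both blood-forming and endothelial cells.

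Start-site windows from RefSeq (GRCm38.p6, the assembly that mm10 names) were read for Erg, Ets2, Elk3, Etv6, Tal1, Lyl1 and Gata2, which is 7 of the 10 genes and 11 windows. Fli1, Ets1 and Lmo2 had no entry. Each window runs from 250 bases before to 50 bases after a start site, on the strand of the gene, and positions are counted from the start site as 0. The windows of 4 genes whose RNA was near or at 0 outside EC are shown, with that of Etv6, whose RNA was at a like level in EC and SC. Erg has 3 windows and Tal1 and Gata2 have 2 each. The window of these genes that holds matches to the motifs below is shown, chosen after the matches were seen. Capitals mark the ETS core, GGAA or its complement TTCC. The windows are Erg, chr16:95459299-95459598, minus strand; Tal1, chr4:115056176-115056475, plus strand; Lyl1, chr8:84701207-84701506, plus strand; Gata2, chr6:88198414-88198713, plus strand; Etv6, chr6:134035450-134035749, plus strand.
Erg: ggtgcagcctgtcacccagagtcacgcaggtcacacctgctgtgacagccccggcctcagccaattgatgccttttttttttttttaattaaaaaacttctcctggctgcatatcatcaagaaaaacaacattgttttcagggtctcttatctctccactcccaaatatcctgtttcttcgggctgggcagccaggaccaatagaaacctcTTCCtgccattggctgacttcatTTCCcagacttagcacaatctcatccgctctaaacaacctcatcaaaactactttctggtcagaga
Tal1: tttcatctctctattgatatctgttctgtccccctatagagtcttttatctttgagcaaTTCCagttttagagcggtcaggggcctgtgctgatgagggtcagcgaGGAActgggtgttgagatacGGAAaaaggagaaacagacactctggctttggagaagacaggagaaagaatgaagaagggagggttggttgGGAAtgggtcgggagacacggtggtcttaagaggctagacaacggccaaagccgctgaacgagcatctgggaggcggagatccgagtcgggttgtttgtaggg
Lyl1: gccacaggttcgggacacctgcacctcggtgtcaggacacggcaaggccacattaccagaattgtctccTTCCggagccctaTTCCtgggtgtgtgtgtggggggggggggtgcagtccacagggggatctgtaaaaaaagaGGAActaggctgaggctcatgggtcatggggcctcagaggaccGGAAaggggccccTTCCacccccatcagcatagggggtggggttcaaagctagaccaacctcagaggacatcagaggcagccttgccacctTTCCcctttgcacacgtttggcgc
Gata2: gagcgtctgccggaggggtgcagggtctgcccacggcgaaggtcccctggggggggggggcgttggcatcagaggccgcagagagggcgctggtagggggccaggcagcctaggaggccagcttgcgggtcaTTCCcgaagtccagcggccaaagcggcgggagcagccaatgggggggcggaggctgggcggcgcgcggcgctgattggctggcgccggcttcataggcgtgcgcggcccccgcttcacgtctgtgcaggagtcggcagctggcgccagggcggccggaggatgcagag
Etv6: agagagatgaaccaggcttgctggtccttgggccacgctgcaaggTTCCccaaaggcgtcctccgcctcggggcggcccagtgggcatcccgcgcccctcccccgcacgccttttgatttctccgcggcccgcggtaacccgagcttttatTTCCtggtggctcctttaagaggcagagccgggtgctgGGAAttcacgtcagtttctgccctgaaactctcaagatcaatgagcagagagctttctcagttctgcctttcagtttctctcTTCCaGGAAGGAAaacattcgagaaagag

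The ETS core occurred 2 times in the Erg window, 4 times in that of Tal1, 6 times in those of Lyl1 and Etv6 and 1 time in that of Gata2. It is a short and common string: 96.0% of the 32851 windows of the RefSeq table held it on either strand, with a median of 3. Of the 5 windows shown, that of Lyl1 alone held the longer ETS consensus CCGGAAG, which contains the core and occurred in 8.86% of all windows. Its match read CTTCCGG at position -182. The E-box CANNTG was found in 72.3% of all windows. It occurred at -217 and -189 in the Erg window (CACCTG and CAATTG), at 10 in that of Tal1 (CATCTG), at -235 in that of Lyl1 (CACCTG) and at 17 in that of Gata2 (CAGCTG). The GATA site AGATAA was found in 11.2% of all windows, and read TTATCT at -103 in the Erg window and at -205 in that of Tal1. The Tal1 window also held, at -140, the composite CTGNNNNNNNNGATA (part of an E-box, 8 bases, then GATA), which is present in 2.28% of windows. The form with 9 bases between, CTGNNNNNNNNNGATA, is present in 2.51% of windows and was in none of the 5 shown. The 4 other windows of Erg, Tal1 and Gata2 held ETS cores (1 to 4) and none of the other motifs. These are matches of letters, on both strands, and no binding was measured.

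Levels are given in FPKM, the fragments assigned to a gene per kilobase of its length, relative to all fragments of the library. By the authors' coverage values, EC and SC libraries held 277.9 to 367.8 Mb of aligned bases and SMF libraries 525.5 to 580.8 Mb. For 1 kb of transcript, a single read pair in a library of sorted cells amounted to 0.272 to 0.360 FPKM, and in a fibre library to 0.172 to 0.190 FPKM. The 10 most abundant genes held 63.7 to 78.9% of the FPKM of a library. A difference is called where the limma test (a linear model of log2(FPKM + 1) over all 16700 genes tested) gave a Benjamini-Hochberg adjusted p under 0.05. All 10 genes passed the filter of at least 1 FPKM in at least 2 libraries. Erg, Fli1, Tal1, Lyl1 and Gata2 passed it through the EC libraries alone, so their tests were open only to genes with RNA in EC. In bulk samples, fewer cells of a type and less RNA per cell cannot be told apart.

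The markers of each label were highest in the population it names. The summed FPKM of 6 endothelial markers (Cdh5, Pecam1, Tie1, Esam, Egfl7 and Emcn) was 899.5 to 970.8 in EC, 5.75 to 10.3 in SC and 2.14 to 2.97 in SMF. All 6 satellite cell markers were higher in SC than in EC, with Pax7 at 106 ± 17.2 FPKM in SC (SD, n = 2) and listed at 0 in every EC library. All 6 fibre markers were higher in SMF than in EC or SC. They summed to 151 and 240 FPKM in SC and 10.4 to 18.1 in EC, and 4 of the 6 were called higher in SC than in EC. Blood cells also use several of the 10 factors, so their markers were read beside them. The 9 leukocyte markers summed to 57.6, 9.89 and 80.9 FPKM in EC 1, EC 2 and EC 3, most of it Lyz2 (43.7, 7.94 and 62.3 FPKM). Cd68 had 6.5, 0.84 and 7.1 FPKM, while Ptprc, the pan-leukocyte gene, was at most 1.07 FPKM. The 8 mast cell and platelet markers summed to 2.24 to 8.20 FPKM in EC and 0.944 to 2.87 in SC. The 6 erythroid markers summed to 152 to 326 FPKM in EC, nearly all of it the globins Hbb-bs and Hba-a1. Alas2 had 3.70, 2.33 and 4.42 FPKM in EC 1 to 3. The erythroid factor Klf1 was listed at 0 in 2 of the 3 EC libraries. Of 3 erythroid markers tested, Hbb-bs and Alas2 were called higher in EC than in SC, where 16.4% of all genes tested were. So was Gp9 of 2 mast cell and platelet markers tested, and none of 4 leukocyte markers. Against SMF, all 3 erythroid and all 4 leukocyte markers tested were called higher in EC, as were Gp9 and 55.5% of all genes tested. EC 2 was the lowest EC library in each of these 3 lists and in pericyte and smooth muscle markers (222 FPKM against 552 and 668), as in fibro-adipogenic markers (15.2 against 54.8 and 57.9). Of these 6 pericyte and smooth muscle markers, 4 were called higher in EC than in SC (Rgs5, Myh11, Pdgfrb and Kcnj8) and 2 higher in SC. Lymphatic markers divided evenly, with Lyve1 and Flt4 higher in EC and Prox1 and Pdpn higher in SC, and of 5 fibro-adipogenic markers Dpt alone was called, higher in SC. The part of these other cells in the results below was not tested.

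The 10 genes spanned a wide range of levels in EC. By mean FPKM the order was Ets2, Fli1, Elk3, Erg, Ets1, Lmo2, Gata2, Etv6, Tal1 and Lyl1. Ets2, Fli1 and Elk3 each lay above the next gene with no overlap between libraries, and so did Tal1 above Lyl1. The others overlapped their neighbours in that order. In TPM the order differed: Ets1 (45.7 ± 8.78) came next after Fli1, above Elk3 and Erg, Gata2 lay above Lmo2, and Fli1 and Elk3 overlapped the next gene. In SC the order was Ets2, Lmo2, Etv6, Elk3 and Ets1, without overlap between neighbours, followed by Fli1, Gata2, Erg and Tal1, which overlapped one another, and Lyl1 at 0. In SMF Ets2 stood apart at 8.02 ± 0.630 FPKM (SD, n = 3), and no other of the 10 reached a mean above that of Etv6, 1.22 ± 0.210 FPKM.

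**Figure D1:**
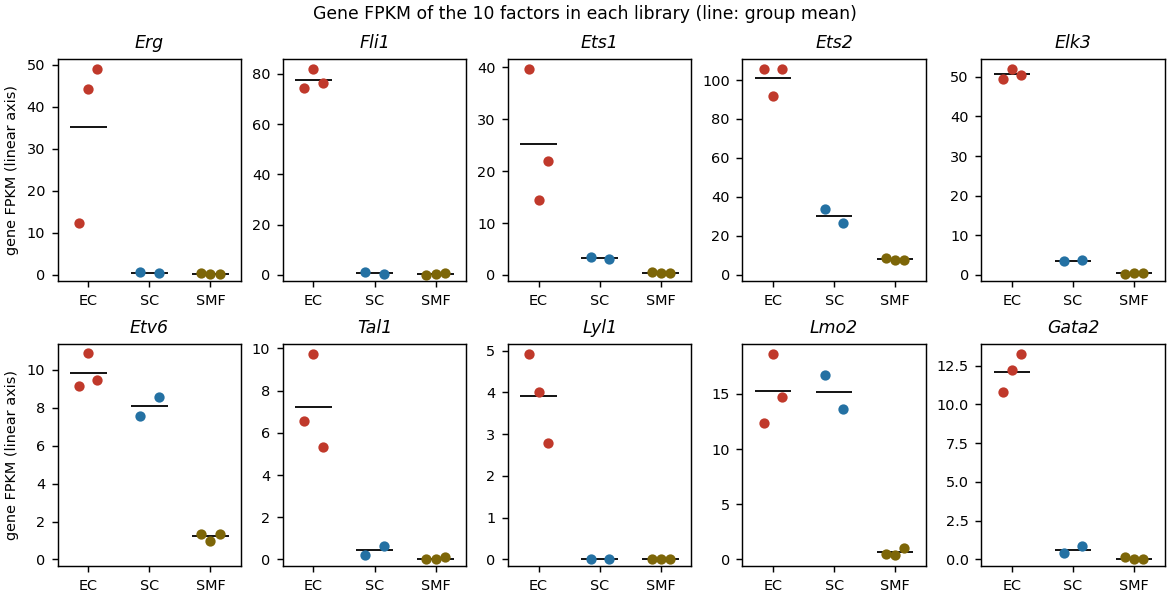
Gene FPKM (linear axis, a scale of its own for each gene) of the 10 factors in each library of endothelial cells (EC), satellite cells (SC) and single muscle fibres (SMF). Points are libraries and lines are group means. Every EC library lies above every SC and SMF library for all genes except Lmo2, whose EC and SC libraries overlap. Such separation is not a call: Etv6 was not called between EC and SC. The share of all genes separated in this way was not computed.

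Erg and Fli1 encode closely related ETS activators, and both were low outside EC. Erg (chr16:95359169-95586600, minus strand) had 12.3, 44.4 and 49.0 FPKM in EC 1, EC 2 and EC 3. It had 0.691 and 0.442 FPKM in SC 1 and SC 3, and 0.377, 0.257 and 0.194 FPKM in SMF 1 to 3. EC 1 was thus far below the other EC libraries, although every EC library was far above all SC and SMF libraries. The log2 difference of EC from SC was 4.32 ± 0.517 (SE), with adjusted p = 0.000477 by limma. Without EC 1 it was 4.93. From SMF the EC libraries differed by 4.61 ± 0.462 (adjusted p = 6.19e-05), and by 5.23 without EC 1.

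Fli1 (chr9:32422204-32543432, minus strand) was the more even of this pair in EC, at 74.2, 81.8 and 76.4 FPKM. It had 0.953 and 0.471 FPKM in SC and 0.0968, 0.487 and 0.757 FPKM in SMF. Its EC libraries lay far above all others, and its SC and SMF libraries overlapped. The ratio of the EC mean to the SC mean was 109, and to the SMF mean 173. On the log2(FPKM + 1) scale Fli1 had the largest difference of the 10 from SC, 5.53 ± 0.226 (adjusted p = 2.18e-06), and from SMF, 5.79 ± 0.202 (adjusted p = 2.90e-07). Neither Erg nor Fli1 was called between SC and SMF (adjusted p = 0.634 and 0.346). The SC level was 1.61% of the EC level for Erg and 0.919% for Fli1. The 6 endothelial markers stood at 0.566 to 1.64% of their EC level in SC, with a median of 0.707%.

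Ets1 and Ets2 encode another related pair, whose proteins respond to growth factor signalling, and both kept a clear level in SC. Ets1 (chr9:32636241-32757820, plus strand) had 39.6, 14.4 and 21.9 FPKM in EC, 3.35 and 3.10 in SC and 0.491, 0.303 and 0.398 in SMF. The 3 populations did not overlap, and EC 1 was the highest EC library, the reverse of its place for Erg. The difference of EC from SC was 2.52 ± 0.354 (adjusted p = 0.00108) and that of SC from SMF 1.60 ± 0.354 (adjusted p = 0.00480).

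Ets2 (chr16:95702407-95721049, plus strand) was the most abundant of the 10 in all 8 libraries. It had 105, 92.0 and 106 FPKM in EC, 34.0 and 26.8 in SC and 8.70, 7.47 and 7.89 in SMF. In FPKM it too separated the 3 populations without overlap, with small spread inside each. The EC mean was 3.33 times the SC mean and 12.6 times the SMF mean, the smallest ratio to SC among the 8 genes called between EC and SC. The limma difference of EC from SC was 1.71 ± 0.167 (adjusted p = 0.000165), and of EC from SMF 3.50 ± 0.149 (adjusted p = 6.90e-07). With median-of-ratios or upper-quartile scaling the Ets2 difference of EC from SMF was 2.17 and 1.86. In TPM the SC libraries lay further apart, at 35.9 and 54.3, and the Ets2 difference of EC from SC was 1.21.

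These 4 genes form 2 pairs of neighbours. Erg and Ets2 lie 115.8 kb apart on chromosome 16 in opposite orientations, and Fli1 and Ets1 lie 92.8 kb apart on chromosome 9 in the same way, with no annotated protein-coding gene between them. The neighbours differed in their levels across populations. The ratio of Fli1 to Ets1 FPKM was 1.87, 5.67 and 3.49 in EC and 0.284 and 0.152 in SC, while in SMF it was 0.197, 1.61 and 1.90, overlapping EC 1. For Erg to Ets2 it was 0.117, 0.482 and 0.463 in EC, 0.0203 and 0.0165 in SC, and 0.0433, 0.0344 and 0.0246 in SMF. Every EC library had a higher ratio than both SC libraries in each pair. The size of the Fli1 to Ets1 ratio depends on the unit, as Ets1 FPKM weights transcripts by their length (below). In TPM, Fli1 had 50.2, 67.6 and 60.3 in EC 1 to 3 and Ets1 45.4, 37.0 and 54.6, which are lower ratios than in FPKM. In SMF 3 they had 0.549 and 0.393 TPM, a higher ratio than in EC 1 and EC 3. Several predicted genes overlap Fli1 in the deposited table, among them Gm37474 at 31.7, 28.7 and 29.8 FPKM in EC, and reads of these and of Fli1 cannot be told apart where the models coincide.

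Elk3 and Etv6 encode ETS proteins known mainly as repressors, and they differed from each other in SC. Elk3 (chr10:93247415-93311159, minus strand) had 49.5, 51.9 and 50.6 FPKM in EC, the tightest EC values of the 10. It had 3.49 and 3.72 FPKM in SC and 0.240, 0.386 and 0.434 in SMF. The populations did not overlap. The difference of EC from SC was 3.49 ± 0.134 (adjusted p = 1.69e-06), of EC from SMF 5.26 ± 0.119 (adjusted p = 9.92e-08) and of SC from SMF 1.77 ± 0.134 (adjusted p = 2.12e-05).

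Etv6 (chr6:134035700-134270158, plus strand) had 9.16, 10.9 and 9.48 FPKM in EC and 7.59 and 8.59 in SC, against 1.35, 0.978 and 1.33 in SMF. Each EC library was above both SC libraries, but by little, and EC and SC were not called different (0.25 ± 0.154, 95% interval -0.10 to 0.61, adjusted p = 0.240). Both sorted populations were above the fibres, EC by 2.29 ± 0.137 (adjusted p = 3.77e-06) and SC by 2.04 ± 0.154 (adjusted p = 2.12e-05). With median-of-ratios or upper-quartile scaling these differences of Etv6 were 1.28 and 1.02 for EC, and 0.88 and 0.74 for SC, and stayed called.

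Tal1 and Lyl1, which encode related E-box binding factors, had the lowest EC levels of the 10. Tal1 (chr4:115056426-115071755, plus strand) had 6.55, 9.73 and 5.33 FPKM in EC, 0.224 and 0.631 in SC, and 0.132 in SMF 3, and was listed at 0 in SMF 1 and SMF 2. By transcript coverage the EC values rest on about 87.8, 151 and 67.0 read pairs and the SC values on 2.96 and 7.40. EC lay above SC by 2.5 ± 0.248 (adjusted p = 0.000176) and above SMF by 2.94 ± 0.222 (adjusted p = 1.28e-05).

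Lyl1 (chr8:84701423-84704716, plus strand) had 4.92, 4.0 and 2.80 FPKM in EC, from about 28.1, 26.5 and 15 read pairs. It was listed at 0 in all 5 SC and SMF libraries, so no fold is given. The difference on the log2(FPKM + 1) scale was 2.27 against both, with adjusted p = 0.000118 from SC and 2.05e-05 from SMF, and it was 5.29 with a pseudocount of 0.1 in place of 1. Nfix overlaps Lyl1 on the other strand and went the other way, at 18.4 and 21.4 FPKM in SC and 8.07 to 9.01 in EC. Whether reads were assigned by strand is not given in the sources used here.

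Lmo2 encodes the bridge of the complex and was the gene of the 10 whose SC level reached its EC level. Lmo2 (chr2:103957903-103981878, plus strand) had 12.4, 18.6 and 14.7 FPKM in EC and 16.7 and 13.6 in SC, and 0.452, 0.421 and 1.05 in SMF. The EC and SC libraries overlapped, and the limma difference was -0.0044, with a 95% interval from -0.55 to 0.54 (adjusted p = 0.994). EC were above SMF by 3.31 ± 0.210 (adjusted p = 4.91e-06) and SC by 3.32 ± 0.234 (adjusted p = 1.60e-05). The leukocyte markers summed to 28 and 33.3 FPKM in SC 1 and SC 3, with Ptprc at 0.143 and 0.432.

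Gata2 (chr6:88193891-88207032, plus strand), which encodes the GATA factor of the complex, had 10.8, 12.2 and 13.3 FPKM in EC. It had 0.386 and 0.847 FPKM in SC and 0.131, 0.0312 and 0.0180 in SMF. The populations did not overlap, but the SC values rest on about 6.39 and 12.4 read pairs and the SMF values on 4.01, 0.94 and 0.50. EC lay above SC by 3.03 ± 0.175 (adjusted p = 1.01e-05) and above SMF by 3.62 ± 0.156 (adjusted p = 7.12e-07).

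Counted over the list, 8 of the 10 genes were called higher in EC than in SC and none lower, with Etv6 and Lmo2 not called. Of the 10, Erg, Fli1, Tal1, Lyl1 and Gata2 entered the test through the EC libraries alone. A call of these 5 as lower in EC, against SC or SMF, was therefore hardly possible. Of all genes tested, 16.4% were called higher in EC and 21.2% higher in SC. The median log2 difference was 2.51 over the 10 genes and -0.11 over all genes. Against SMF, all 10 were called higher in EC, where 55.5% of all genes were. The medians were 3.56 and 0.85. The sizes against SMF depend on the scaling: by upper quartiles, where the median of all genes is -0.13, the 10 differences ran from 1.02 (Etv6) to 4.77 (Fli1), against 2.27 (Lyl1) to 5.79 (Fli1) as deposited.

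Between SC and SMF, 6 of the 10 were called higher in SC (Ets1, Ets2, Elk3, Etv6, Lmo2 and Gata2) and none lower. This is a share near that of all genes, 56.5%, and the medians were 1.10 for the 10 genes and 0.93 for all. Scaled by the median of ratios, where the median of all genes falls to 0.12, or by upper quartiles, where it is 0.0019, 3 of the 10 were called (Elk3, Etv6 and Lmo2). Ets2 then differed by 0.31 and 0.12 and was not called, and the call of Gata2 was also lost without SC 3 (adjusted p = 0.115), SMF 2 (0.0508) or SMF 3 (0.0519). The EC calls against both populations were unchanged in number under each of these settings.

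**Figure D2:**
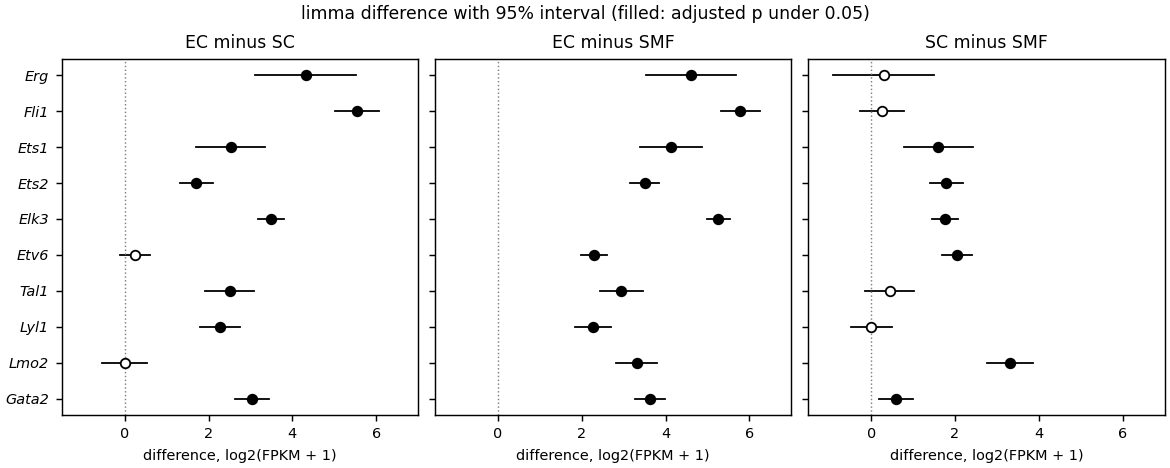
Differences of the 10 factors between populations on the log2(FPKM + 1) scale, with 95% intervals from limma. Filled points have an adjusted p under 0.05. In the panel of EC minus SC, the intervals of Etv6 and Lmo2 include 0, while in that of EC minus SMF all 10 lie above 0.

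The make-up of ETS family RNA also differed between populations. FPKM is per length, and the levels of the 25 ETS genes in the table were summed. For Ets1 the length is fixed at 8476 bases whichever transcripts hold the reads, so the sums and shares do not count molecules. The sum was 412 ± 15.8 FPKM in EC, 138 ± 2.57 in SC and 25.1 ± 0.943 in SMF (SD, n = 3, 2 and 3). Erg, Fli1, Ets1, Ets2, Elk3 and Etv6 together held 72, 73.2 and 72.7% of it in EC, 35.8 and 31.7% in SC, and 43.2, 39.3 and 45.5% in SMF. No EC library overlapped another population. Fli1 alone held 18.8% ± 1.31 in EC and 0.514% ± 0.237 in SC. The share of Ets2 varied less, with 24.5% ± 1.67 in EC, 22% ± 3.30 in SC and 31.9% ± 1.94 in SMF. The TPM table, which scales transcripts to a fixed total, holds no row named Elk4. Over the 24 ETS genes that are in both tables, the 6 genes held 79.0% ± 0.705 of the FPKM in EC, 38.7% ± 1.98 in SC and 48.9% ± 3.02 in SMF, and 76.7% ± 2.74, 43.7% ± 1.73 and 46.1% ± 2.27 of the TPM. Single shares depended more on the unit: over the same genes Ets1 held 6.71% ± 3.55 of the FPKM in EC and 12.1% ± 2.45 of the TPM. Ets2 held 26.7% ± 1.93 of the FPKM in EC and 25.2% ± 2.87 in SC. Of the TPM it held 27.4% ± 1.99 in EC and 31.7% ± 3.79 in SC.

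The rest of the ETS family did not follow one direction. Of 20 listed genes 19 were in the table and 9 were tested. Between EC and SC, 3 were called higher in EC, 2 lower, and 4 were not called. The shares over all genes tested were 16.4% higher in EC and 21.2% lower. Elk4, a partner of serum response factor, had 33.4 ± 4.16 FPKM in EC and 17.7 ± 4.03 in SC (adjusted p = 0.00802), and Elf1 had 29.0 ± 1.13 and 14.3 ± 3.83 (adjusted p = 0.0230). The repressor Erf went the other way, with 7.18 ± 2.78 FPKM in EC and 16.2 ± 4.49 in SC (adjusted p = 0.0333), as did Etv5, an effector of FGF signalling, with 1.28 ± 1.08 and 9.32 ± 3.54 (adjusted p = 0.00263). Spi1, the ETS factor of myeloid cells, had 0.175, 0 and 1.92 FPKM in EC 1 to 3 and 0.362 and 0.392 in SC, and was not tested. Against SMF, 8 of the 9 were called higher in EC, where 55.5% of all genes tested were.

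**Figure D3:**
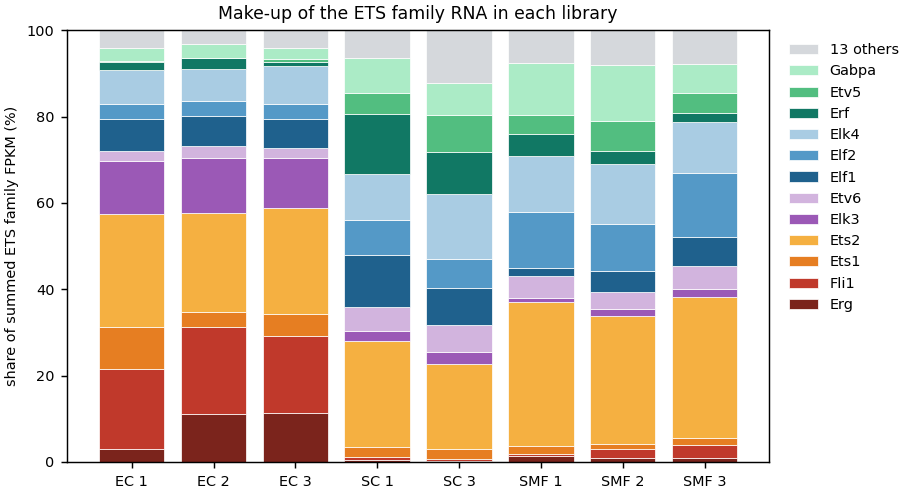
Share (%) of the summed FPKM of 25 ETS genes held by each gene, 1 stacked bar per library. The 6 factors at the bottom of the bars, from Erg up to Etv6, fill 72 to 73.2% of each EC bar and 31.7 to 45.5% of the others, and the Fli1 and Erg segments are nearly gone outside EC.

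The partners of Tal1, Lmo2 and Gata2 were measured in SC as well as EC, with exceptions. Of 9 partner genes, 5 were called higher in EC than in SC, 2 lower, and Tcf12 and Ldb1 were not called. Over all genes tested, 16.4% were called higher in EC than in SC and 21.2% lower. The E proteins that pair with TAL1 were present in both: Tcf3 had 14.0 ± 1.40 FPKM in EC and 9.47 ± 0.397 in SC (adjusted p = 0.0255), and Tcf4 15 ± 0.75 and 6.2 ± 0.336 (adjusted p = 0.000659). Ldb1, the usual partner of LMO2, had 11.1 ± 0.789 and 9.21 ± 2.27 FPKM (adjusted p = 0.293). Its relative Ldb2 had 25.2 ± 5.64 FPKM in EC and 0.326 ± 0.144 in SC (log2 difference 4.29, adjusted p = 3.95e-06), and passed the filter through EC alone. The corepressor Cbfa2t3 had 16.3 ± 1.33 and 8.24 ± 0.578 FPKM (adjusted p = 0.00268). Runx1, a blood stem cell factor, was higher in SC, at 13.6 ± 0.788 FPKM against 0.371 ± 0.163 in EC (log2 difference of EC from SC -3.42, adjusted p = 7.74e-06). Against SMF, 7 of the 9 were called higher in EC, where 55.5% of all genes tested were, and Runx1 was called lower.

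None of 4 genes of the Id proteins, which hold E proteins away from DNA, was called between EC and SC at an adjusted p under 0.05. Id3 came nearest, with 66.9 ± 19.6 FPKM in EC and 116 ± 13.5 in SC (adjusted p = 0.0560). Both SC libraries lay above every EC library for Id3. All 4 were called higher than in SMF in both sorted populations, as were 55.5% of all genes tested in EC and 56.5% in SC. EC 2 had the least Id1 of the EC libraries.

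Among other GATA and LMO genes and GATA cofactors, 6 of 10 were tested, with 4 called higher in EC than in SC and 1 lower. Of all genes tested, 16.4% were called higher and 21.2% lower. Lmo1, a relative of Lmo2, had 6.03 ± 0.800 FPKM in EC and was listed at 0 in every SC and SMF library (adjusted p = 8.97e-06 from SC). Gata3 had 2.11 ± 0.428 FPKM in EC and Gata6 2.03 ± 1.62, and both were listed at 0 in SC and SMF. Lmo1, Gata3 and Gata6 thus passed the filter through EC alone, and a call of them as lower in EC was hardly possible. The GATA cofactor Zfpm1 had 9.65 ± 0.927 FPKM in EC and 1.38 ± 0.320 in SC (adjusted p = 3.32e-05). Lmo4 was higher in SC, at 7.25 ± 0.289 FPKM against 3.16 ± 0.246 (adjusted p = 0.000815). Gata1, the erythroid and mast cell factor, was listed at 0 in every EC library.

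**Figure D4:**
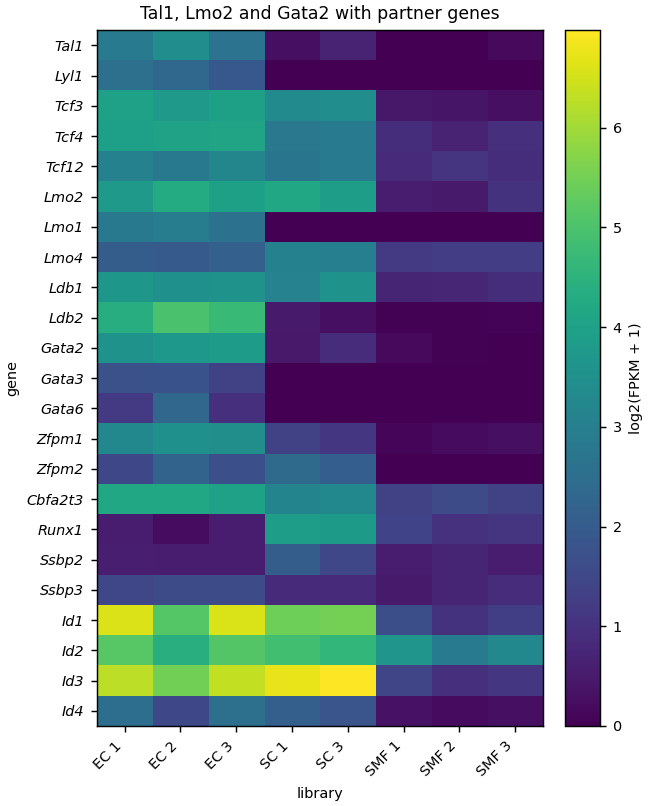
Colour gives log2(FPKM + 1) of Tal1, Lyl1, Lmo2 and Gata2 with their partner, cofactor and inhibitor genes (rows) in each library (columns). Lmo2, Ldb1, Tcf3 and Tcf12 have like colours in EC and SC, while Tal1, Lyl1, Gata2, Lmo1 and Ldb2 are dark in SC and SMF.

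Genes long used as targets of these factors in endothelium were higher in EC. All 16 of them were called higher in EC than in SC, where 16.4% of all genes were, and than in SMF, where 55.5% were. The median log2 difference from SC was 5.33. The 6 endothelial markers that checked the populations are among the 16. Cdh5, the endothelial cadherin, had 486 ± 25.2 FPKM in EC, 2.84 ± 1.76 in SC and 1.31 ± 0.438 in SMF (log2 difference from SC 7.07, adjusted p = 2.19e-06). The VEGF receptors Flt1 and Kdr differed from SC by 6.23 (adjusted p = 4.74e-07) and 6.49 (adjusted p = 2.32e-06). Both were under 1 FPKM in every SC and SMF library, as were most of the 16 genes. These passed the filter through EC alone, and a call of them as lower in EC was hardly possible. In SC the 16 genes stood at a median of 0.857% of their EC level, from 0.179 to 12.4%, the highest being Tek, the angiopoietin receptor. Over the 10 factors the same median was 6.53%, from 0 for Lyl1 to 99.5% for Lmo2. Between them lay Fli1 at 0.919%, Erg at 1.61%, Gata2 at 5.10% and Tal1 at 5.93%. Elk3 stood at 7.12%, Ets1 at 12.7%, Ets2 at 30.1% and Etv6 at 82.2%.

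Among 14 other endothelial transcription factors, 12 were called higher in EC than in SC, and Klf4 and Foxo1 were not. Over all genes tested the share called higher in EC was 16.4%. Some of the 14 were under 1 FPKM in every SC and SMF library. They passed the filter through EC alone, and a call of them as lower in EC was hardly possible. Epas1, the hypoxia factor, had 342 ± 18.8 FPKM in EC against 6.64 ± 2.85 in SC (log2 difference 5.54, adjusted p = 2.33e-06), and Klf2, which responds to blood flow, 120 ± 6.51 against 9.12 ± 1.72 (adjusted p = 9.84e-06). Against SMF 13 were called higher in EC, where 55.5% of all genes tested were. Mef2c, used by both vessels and muscle, was lower, at 7.71 ± 2.14 FPKM in EC and 18.4 ± 4.30 in SMF (adjusted p = 0.00350).

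The transcripts to which reads were assigned varied between EC libraries for some of the factors. The transcript table does not list every transcript of Erg, Ets2, Etv6 and Lmo2, so shares are among listed transcripts and were not tested. For Ets1, a 5080-base transcript held 89.7% of the listed FPKM in EC 1 but 20.4% and 18.9% in EC 2 and EC 3. There a 1976-base transcript with nearly the same start, listed at 0 in EC 1, held 64.1% and 68.2%. The gene FPKM of Ets1 equals its length-weighted transcript FPKM divided by a fixed length of 8476 bases in every library, so it weights each transcript by its length. In TPM, Ets1 had 45.4, 37.0 and 54.6 in EC, so that EC 1 was no longer the highest. Erg stayed lowest in EC 1 in TPM, at 9.34 against 36.4 and 49.6.

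Tal1 was assigned wholly to a 4213-base transcript in EC 1 and EC 2, whose start is that of the Tal1 window shown above. In EC 3 it was assigned wholly to a 2894-base transcript that starts inside the gene, at chr4:115059508. For Gata2, an 841-base transcript at the 3' side of the gene held 65.7% of the listed FPKM in EC 1, 7.67% in EC 2 and 29.5% in EC 3. The 3571-base transcript held 31.7, 78.3 and 51.9%. For Lmo2, a 1706-base transcript held 97.4% in EC 2, 100% in EC 3 and 43.6% in EC 1, where a 1654-base transcript held 43.0%. For Fli1 the assignment was steady, with 98.4, 96.9 and 97.7% in a 3318-base transcript.

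**Figure D5:**
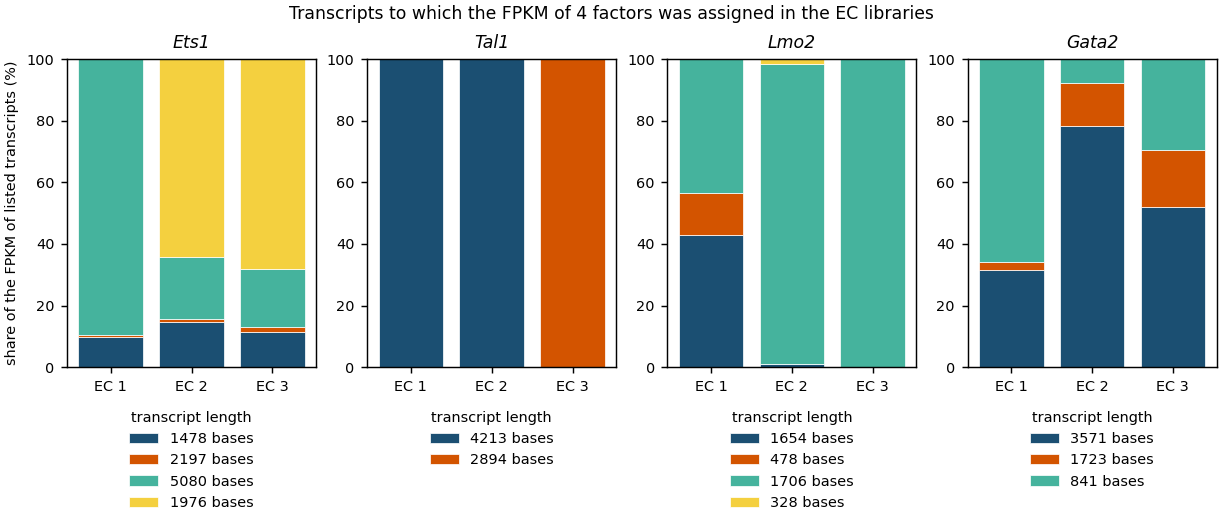
Share (%) of the listed transcript FPKM of Ets1, Tal1, Lmo2 and Gata2 held by each transcript in the 3 EC libraries, with transcripts named by their length in bases. EC 1 differs from EC 2 and EC 3 for Ets1 and Lmo2, and EC 3 differs from the other two for Tal1.

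The genes whose pattern was most like that of each factor were read from Pearson's r of log2(FPKM + 1) over the 8 libraries, among 4157 tested genes with a mean of at least 5 FPKM. The libraries fall into 3 populations, so r mostly reads the level of each population, and it is given as a description. For Erg they were Nr2f2 (r = 0.987), a venous factor, and Ldb2 (0.984), and for Fli1 they included Aqp1 (0.998), the water channel of capillaries. Elk3 was followed by Apbb2 and Ppp2r5a (both 0.999), and Ets2 by Dnm2 and Itsn2 (both 0.998), which act in endocytosis. For Ets1 they were Lgals3bp (0.995) and Ccdc85b (0.992), and for Etv6 Tbc1d9b (0.999) and Wwc2 (0.999). Tal1 was followed by B3gnt3 (0.998) and Entpd1 (0.995), which breaks down extracellular ATP, and Lyl1 by the interferon-induced Gbp4 (0.994) and Gbp9 (0.994). For Gata2 they were Gimap9 and Mecom (both 0.999). Lmo2 was followed by Tnfaip3 (0.997), an inhibitor of NF-kB signalling, with 14.9 FPKM in EC, 15.9 in SC and 0.902 in SMF, and by the tetraspanin Cd9 (0.997). By Spearman's rho a different pair led for each of the 10 factors.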

How the data were processed

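RNA was measured in 8 libraries, grouped by their titles. Per the submitters' processing notes, HISAT2, StringTie, bedtools, Trimmomatic and FastQC were used, with mm10 as build. Their versions and how they were set were not given in the sources used here. The labels mention a single sample, unnamed, whose RNA integrity was below that of the rest. The authors deposited gene FPKM for 36048 genes, TPM for 46435 loci with their own specificity score (formula not stated), and transcript FPKM with read coverage for 89871 transcripts, per the file headers. Transcript numbers run to 115219, and 25348 of them are absent. No sample column was left unused (0).

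Computed here: limma 3.58.1 (R 4.3.3) with a trend of variance on mean, on log2(FPKM + 1), 1 mean per group over all 8 libraries, two-sided, for genes of at least 1 FPKM in at least 2 libraries (16700), with Benjamini-Hochberg adjustment over all of them. Fold changes on this scale understate low genes. The fit was tested on simulated data. Alternatives were other pseudocounts, filters, scalings, the TPM table, fits of 2 groups, no trend, a replicate block and leaving out each library. A further one was a test against a log2 fold change of 1. Read pairs were estimated as coverage times length over 2 reads of 50 bases.

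The factors, 15 gene lists and tests were chosen with earlier results of these data known. All 10 factors are named. From the other lists up to 4 called genes of the highest mean in the main direction and 2 in the other were eligible, plus 2 genes most like each factor. A gene that this rule takes is not reported here. Genes named as not called or not tested, the overlapping genes, Tek, Gata1, Spi1, Ptprc and Klf1 were singled out after their values were seen. Of 2 rows named Itgam the higher was used. A planned comparison of protein sequences was not run.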

Additional observations from a re-analysis of the deposited data

How the results depend on the processing

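The counts of 8 factors higher in EC than in SC and 10 higher in EC than in SMF held under every alternative run, including leaving out each replicate (8 to 8 and 10 to 10). The count between SC and SMF was 6. It was 3 after median-of-ratios scaling and 3 after upper-quartile scaling, which bring the median of all genes from 0.93 to 0.12 and 0.0019, and 5 to 6 when a replicate was left out. With the replicate number as a replicate block the counts were 8, 10 and 6. Deviations of libraries with the same number correlated between -0.058 and 0.091, so the numbers were not taken to pair libraries. No called difference changed sign. Of differences not called, 13 values had the other sign (Erg 3 and Fli1 3 between SC and SMF, Lmo2 7 between EC and SC). Of 599 single differences of the factors under alternatives, 586 kept their side of the threshold, 12 lost the call, all between SC and SMF, and 1 gained it (Tal1 between SC and SMF, 1.88 with a pseudocount of 0.1). Over the 24 ETS genes in both tables, a comparison added after seeing the data, shares moved by more than the spread between replicates in 11 of 21 values from FPKM to TPM, and 82 of 675 counts of the other lists moved by over 1.5 times. For low genes depth limits the values: 1 read pair per kb is 0.172 to 0.360 FPKM, and every Tal1 and Gata2 level in SMF was below it.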

Other observations

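The authors' deposited table scores how specific each locus is to a population. Its EC score, whose formula is not stated, was 1.57 for Fli1 (rank 45 in that table) and 1.36 for Erg (rank 99). In the authors' deposited table Elk3 had 1.04, Ets1 0.973, Gata2 0.928, Tal1 0.708, Lyl1 0.575 and Ets2 0.356. Etv6 and Lmo2 had the lowest of the 10 in the authors' deposited table, 0.0627 (rank 6771) and 0.0305 (rank 8821).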
